A study of Homo sapiens with 6 samples.

Results

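The translation elongation factor genes comprised 7 members chosen by symbol, EEF1A1, EEF1A2, EEF1B2, EEF1D, EEF1G, EEF2 and EEF2K, out of 20330 Ensembl genes in the tables. All 7 were listed in every library and all 7 passed the filter on low values, a mean of at least 1 FPKM (fragments per kilobase of transcript, scaled to the sequencing depth). The group was put together with the comparison of the groups already known, EEF1A2 being the member that differed, so the differences between the groups are given for the members as a description. RNA sequencing had been done on U251, an established human glioblastoma cell line, with 3 libraries labelled control and 3 labelled as overexpressing the long noncoding RNA XLOC013218. The series describes the overexpression as stable and the replicates as independent. What the control cells carry, which promoter drives the transgene and whether the cells are 1 clone or a pool were stated in none of the sources used. XLOC013218 was not among the loci read from the tables, so its overexpression could not be checked. The groups carry the names of their labels. Where 3 values are given for a group, they are those of its replicates 1, 2 and 3.

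Elongation is the step of protein synthesis in which the ribosome adds amino acids to the growing chain. eEF1A carries each charged tRNA to the ribosome while bound to GTP, the eEF1B subunits encoded by EEF1B2, EEF1D and EEF1G reload eEF1A with GTP, and eEF2 moves the ribosome along the mRNA by one codon. eEF2 kinase, encoded by EEF2K, phosphorylates eEF2 and thereby slows elongation. eEF1A exists in a pair of closely related forms: EEF1A1 is expressed in nearly all cells, whereas EEF1A2 is the form of neurons, heart and skeletal muscle and is also expressed in some tumours.

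The coding sequences of both eEF1A genes are shown because the values of both rest on telling their transcripts apart. In the principal GENCODE 29 transcripts of EEF1A1 (chromosome 6) and EEF1A2 (chromosome 20), coding bases 1 to 120 read as follows, 5′ to 3′, with capitals at the 22 positions where the genes differ.
EEF1A1: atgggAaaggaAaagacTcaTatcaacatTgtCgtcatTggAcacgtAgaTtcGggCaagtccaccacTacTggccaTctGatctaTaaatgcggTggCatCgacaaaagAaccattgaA
EEF1A2: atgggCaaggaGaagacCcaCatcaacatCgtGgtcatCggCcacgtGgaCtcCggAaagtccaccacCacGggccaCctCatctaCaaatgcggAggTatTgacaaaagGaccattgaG
The longest identical run between the aligned coding sequences was 20 bases, and it is shown with 20 bases on each side, as coding bases 137 to 196 of both genes, with capitals again at the differences.
EEF1A1: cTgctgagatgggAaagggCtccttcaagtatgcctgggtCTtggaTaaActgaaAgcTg
EEF1A2: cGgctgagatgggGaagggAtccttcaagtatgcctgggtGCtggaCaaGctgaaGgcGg
Over 1389 aligned coding bases the genes were 78.2% identical, and 252 of the 303 differing bases, 83.2%, lay at the third position of a codon. In EEF1A2 the base at the third codon position was G or C in 89.0% of codons, against 48.2% in EEF1A1.

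Reads of these genes therefore differ in how far they can be placed. No stretch of 50 bases of the EEF1A2 transcript occurred in a transcript of another gene, nor did any of EEF2. Of the stretches of 50 bases in the EEF1A1 transcript, 57.2% also occurred in 1 or more of 28 other genes, led by the processed pseudogene EEF1A1P5, and none occurred in EEF1A2. For EEF1B2 the share was 59.4%, with pseudogene EEF1B2P3 leading, and for EEF1G it was 98.7%, with the annotated gene AP002990.1 leading. EEF1D shared 4.64% and EEF2K 1.76%. With stretches of 100 bases the shares were 45.7% for EEF1A1, 33.3% for EEF1B2, 93.4% for EEF1G and 0 for the other 4 members. The read length and the treatment of reads with several placements were not stated, so the levels of EEF1A1, EEF1B2 and EEF1G are uncertain, while EEF1A2 and EEF2 share no such stretch. By symbol, the tables listed no pseudogene of a member.

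The members spanned a wide range of levels. On the FPKM scale, which is per length of transcript, EEF1A1 was highest, at 4069 FPKM on average over the 6 libraries, followed by EEF2 at 1552, EEF1G at 703, EEF1D at 345, EEF1B2 at 249, EEF1A2 at 65.0 and EEF2K at 12.8 FPKM. No library of one member overlapped a library of the next in this order. EEF1A1 ranked between 2 and 3 among the 20330 genes in every library, EEF2 between 36 and 42, EEF1G between 120 and 131, EEF1D between 225 and 246, and EEF1B2 between 334 and 359. EEF1A2 ranked between 1544 and 2210 and EEF2K between 6201 and 7314. The 7 members together took between 1.09% and 1.18% of the summed FPKM of a library.

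Levels of EEF1A2, the tissue-restricted form of eEF1A, were 71.4, 74.7 and 72.2 FPKM in the control libraries and 60.2, 53.8 and 57.5 FPKM in the overexpression libraries. All 3 overexpression libraries lay below all 3 control libraries. The group means were 72.8 ± 1.69 and 57.2 ± 3.23 FPKM (SD, n = 3 per group), 21.4% lower in overexpressing cells. On the log2(FPKM + 1) scale used for the fit over all genes the difference was -0.34 (SE 0.05, 95% interval -0.47 to -0.22). After rescaling to TPM, which sets the summed level of each library to the same total, the means were 119 ± 3.54 and 92.7 ± 5.80. In bulk RNA a smaller number of cells that express EEF1A2 and less EEF1A2 RNA per cell cannot be told apart.

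In the fit over all genes, limma on log2(FPKM + 1) with Benjamini-Hochberg adjustment, 1 of the 7 members, EEF1A2, passed an adjusted p of 0.05, in the lower direction. Over all 11731 genes tested the same rule called 61 genes, 0.52% of those tested, and 24 of them, 0.205% of those tested, were lower. Since EEF1A2 was chosen from this contrast, nothing is read from its call. The number of called genes was 1, 1 and 2 when control replicate 1, 2 or 3 was omitted and 14, 60 and 23 when overexpression replicate 1, 2 or 3 was. EEF1A2 was not called in any of these 6 fits, nor without the filter, without limma's trend or with the replicate number as a block. Its difference ranged from -0.38 to -0.30 in the fits that leave out 1 library. Of all tested genes, 18.9% had groups without overlap, 10.1% in the lower direction. The split of 37 higher and 24 lower calls became 30 and 31 after rescaling to TPM.

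**Figure D1:**
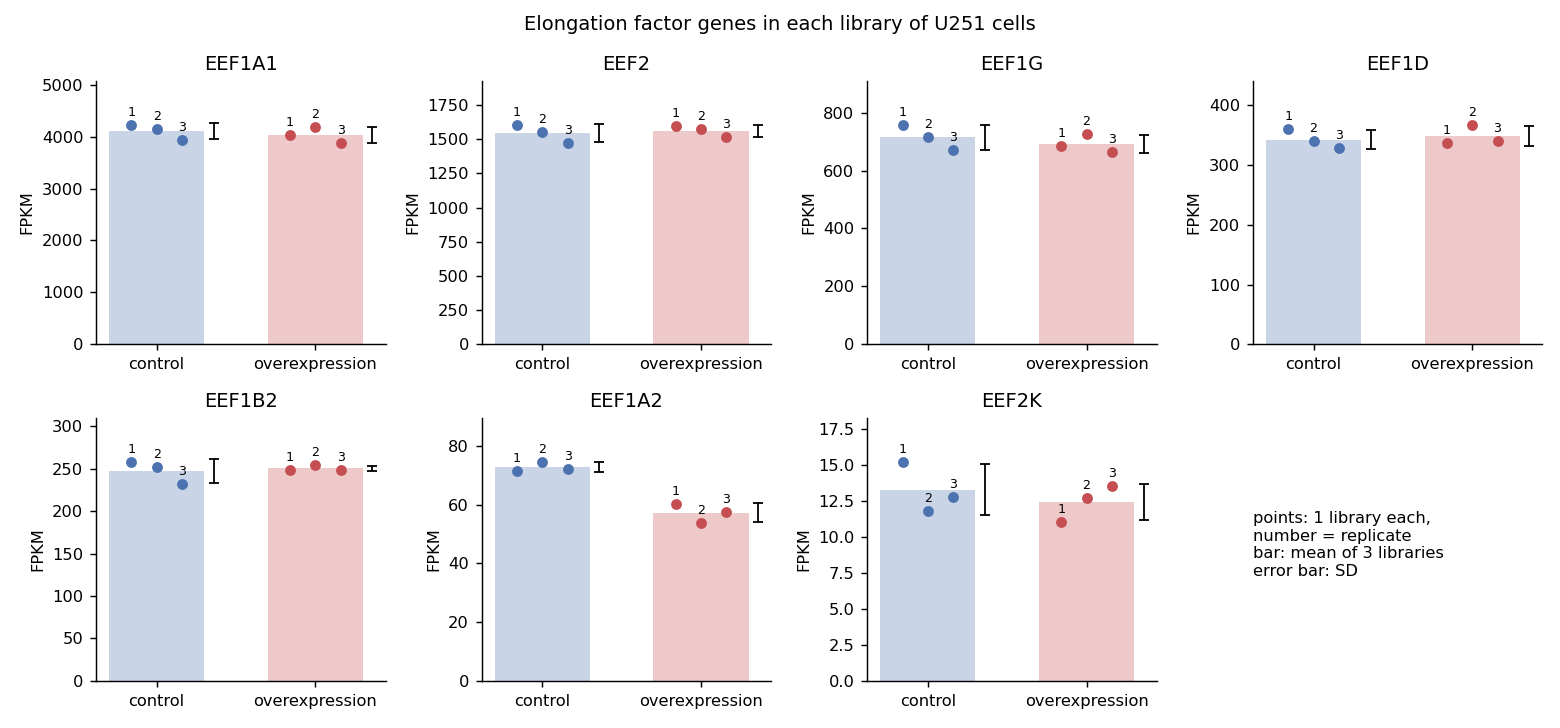
FPKM of the 7 elongation factor genes in each library, with control libraries in blue and overexpression libraries in red, numbered by replicate; bars are means of 3 libraries, error bars are SD, and each panel has its own axis from 0. The EEF1A2 values range from 71.4 to 74.7 FPKM in the control libraries and from 53.8 to 60.2 FPKM in the overexpression libraries, while the groups overlap in the other 6 panels.

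Levels of EEF1A1, the general carrier of charged tRNA, were 4227, 4151 and 3934 FPKM in the control libraries and 4036, 4183 and 3883 FPKM in the overexpression libraries. The groups overlapped, with means of 4104 ± 152 and 4034 ± 150 FPKM (SD, n = 3 per group). The log2 difference was -0.02 (SE 0.06), and its 95% interval ran from -0.15 to 0.10, that is, from 9.86% lower to 7.20% higher. EEF1A1 plus EEF1A2 came to 4177 ± 152 FPKM in control and 4091 ± 148 FPKM with overexpression, a difference smaller than the SD of either group.

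EEF1A2 made up a small share of eEF1A message in these cells. Its share of the summed EEF1A1 and EEF1A2 FPKM was 1.66%, 1.77% and 1.80% in the control libraries and 1.47%, 1.27% and 1.46% in the overexpression libraries. The groups did not overlap, with means of 1.74 ± 0.0734% and 1.40 ± 0.113% (SD, n = 3 per group). Expressed as a ratio, EEF1A1 was 56.4 ± 2.46 times EEF1A2 in control and 70.8 ± 6.07 times in overexpressing cells. Because both genes were read within the same library, this ratio does not depend on the scaling between libraries, though it inherits the uncertainty of the EEF1A1 level.

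The exchange factor subunits differed little between the groups. EEF1B2, which encodes the catalytic subunit eEF1B-alpha, was at 258, 252 and 232 FPKM in the control libraries and at 248, 254 and 249 FPKM in the overexpression libraries. EEF1D, which encodes the other catalytic subunit, was at 360, 340 and 328 FPKM and at 338, 367 and 340 FPKM in the same order. EEF1G, which encodes the structural subunit, was at 758, 716 and 670 FPKM and at 684, 725 and 663 FPKM. The groups overlapped for all 3 genes. The log2 differences were 0.02 for EEF1B2 (95% interval -0.10 to 0.13), 0.02 for EEF1D (-0.10 to 0.14) and -0.05 for EEF1G (-0.18 to 0.08).

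Ratios between the subunits and eEF1A were taken within each library. EEF1D was 1.39 ± 0.0349 times EEF1B2 in control and 1.39 ± 0.0492 times in overexpressing cells (SD, n = 3 per group). EEF1A1 was 5.75 ± 0.150 times EEF1G in control and 5.84 ± 0.0630 times in overexpressing cells, and over the 6 libraries this ratio varied by 1.98% (SD over mean), against 3.45% for EEF1A1 and 5.16% for EEF1G in FPKM and 2.72% and 4.36% in TPM. EEF1D over EEF1B2 varied by 2.76%, less than EEF1D (4.35%) and EEF1B2 (3.66%) in FPKM, but more than EEF1B2 in TPM (2.44%, with EEF1D at 3.26%). EEF1G over EEF1D was 2.10, 2.11 and 2.04 in control and 2.03, 1.97 and 1.95 in overexpressing cells, lower in all 3 without overlap. The nearest values, 2.04 and 2.03, were close, and the ratio inherits the uncertainty of the EEF1G level. EEF1G over EEF1B2 overlapped between the groups, as did EEF1A1 over EEF1D, over EEF1B2 and over EEF2. Among single genes, 18.9% of those tested had groups without overlap.

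**Figure D2:**
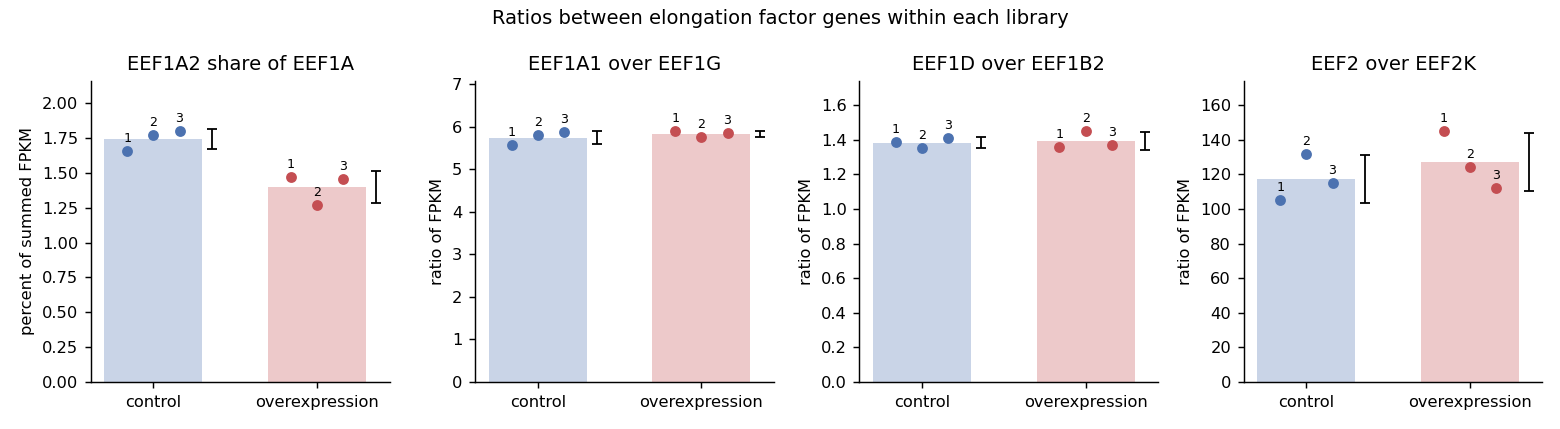
Ratios within each library, with control libraries in blue and overexpression libraries in red, numbered by replicate; bars are means of 3 libraries and error bars are SD. The EEF1A2 share of eEF1A message ranges from 1.66% to 1.80% in control and from 1.27% to 1.47% with overexpression, while EEF1A1 over EEF1G, EEF1D over EEF1B2 and EEF2 over EEF2K overlap between the groups.

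Levels of EEF2, the translocation factor, were 1606, 1550 and 1474 FPKM in the control libraries and 1594, 1574 and 1514 FPKM in the overexpression libraries, with overlapping groups and a log2 difference of 0.02 (95% interval -0.10 to 0.13). EEF2K, its inhibitory kinase, was at 15.2, 11.8 and 12.8 FPKM and at 11.03, 12.7 and 13.5 FPKM. These groups overlapped too, with a log2 difference of -0.09 (SE 0.11, 95% interval -0.33 to 0.16), the widest interval among the members. The EEF2 level was 117 ± 13.2 times that of EEF2K in control and 127 ± 16.4 times in overexpressing cells (SD, n = 3 per group). RNA levels do not show the phosphorylation of eEF2, which was not measured.

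The abundant members were also compared with the summed level of each library. Control replicate 3 had the lowest control value for EEF1A1, EEF1B2, EEF1D, EEF1G and EEF2, and it also had the lowest summed FPKM over the Ensembl genes, 598683 against 613567 to 621922 in the other 5 libraries. Over all 6 libraries, EEF1A1 and EEF1G were lowest in overexpression replicate 3, whose summed FPKM was 614027. Rescaling to TPM reduced the variation over the 6 libraries from 3.45% to 2.72% for EEF1A1, from 3.66% to 2.44% for EEF1B2, from 4.35% to 3.26% for EEF1D, from 5.16% to 4.36% for EEF1G and from 3.24% to 2.24% for EEF2. For EEF1A2 it went from 13.6% to 14.2%. The median over the 438 genes with a mean of at least 200 FPKM was 4.98% on the FPKM scale. The reference genes GAPDH (3468 ± 170 and 3550 ± 181 FPKM) and ACTB (2773 ± 142 and 2720 ± 70.4 FPKM) were also lowest among the controls in replicate 3.

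Several messages for elongation factors, EEF1A1 and EEF2 among them, are known as TOP mRNAs, which begin with a C followed by a run of pyrimidines that puts their translation under the control of growth signals. The windows are the 24 bases around the RefSeq start sites (GRCh38.p14), 12 before and 12 from the first transcribed base. They are given for EEF1A1, EEF2, EEF1B2, EEF1G and EEF2K. No window of EEF1A2 or EEF1D was used, so a run at the starts of these genes was not tested. Capitals mark a run made of a C and at least 4 further bases that are C or T. The run was searched on the gene's strand from 10 bases before to 10 after the start.
EEF1A1, chr6:73521021-73521044, minus strand: gccgtgaacgttCTTTTTCgcaac
EEF2, chr19:3985452-3985475, minus strand: gacgtcagcgttCTCTTCCgccgt
EEF1B2, chr2:206159883-206159906, plus strand: gtctcttcgggtCCTTTTTCCTCT
EEF1G, chr11:62573880-62573903, minus strand: cccgggcggcttactttgcggcag
EEF2K, chr16:22206266-22206289, plus strand: ccgcccgCTTCTgctcaacctaga
The run began exactly at the start site of EEF1A1, EEF2 and the shown start of EEF1B2, and extended over 7, 7 and 16 bases. It began exactly at the start in 4.07% of all 35116 RefSeq windows, and within 10 bases of it in 33.5%. In EEF2K a run of 5 bases began 5 bases before the start, and none was found in the EEF1G window or at a second annotated start of EEF1B2. The 3 shown genes with the run at their start were at 4069, 1552 and 249 FPKM on average, and EEF2K was at 12.8 FPKM. EEF1G, at 703 FPKM, had no such run in this window.

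Beyond the members, 6 lists covered the rest of the translation machinery and its regulation. Of 98 genes tested in these lists, 0 passed in limma after adjustment over all genes, and 11 had an unadjusted p under 0.05, 11.2% against 12.7% of all tested genes. Their log2 differences had a median of 0.04, against a median of 0.00 over all tested genes, and 69 of 98 were above 0, against 49.7% of all tested genes. After rescaling to TPM the median was 0.02 and 66 of 98 were above 0, against 45.3% of all tested genes. Groups did not overlap for 14 in the higher and 4 in the lower direction, against 8.81% and 10.1% of all tested genes. The lowest adjusted p in limma was 0.250, for CALM3.

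Accessory factors of elongation had 11 tested genes, 0 called, and a median log2 difference of 0.06. EEF1E1, a scaffold protein of the tRNA synthetase complex that is related in sequence to the eEF1 subunits, was at 41.1, 44.7 and 43.2 FPKM in control and 49.8, 46.3 and 49.3 FPKM with overexpression, without overlap and without passing the test (log2 difference 0.17, SE 0.06, limma adjusted p = 0.258). EIF5A, which helps ribosomes through difficult sequences, was the most abundant of the list at 829 ± 42.7 and 867 ± 54.5 FPKM, with overlapping groups. The ABC-family proteins ABCF1 (96.0 ± 0.447 and 103 ± 0.792 FPKM) and ABCF2 (50.9 ± 1.72 and 56.0 ± 2.60 FPKM) were higher without overlap and did not pass.

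Enzymes that modify eEF1A or eEF2, the lysine methyltransferases and the diphthamide pathway, had 12 tested genes, 0 called, and a median of 0.05. METTL13, which methylates eEF1A, was at 32.6 ± 0.604 and 32.8 ± 1.05 FPKM, and DPH2, a subunit of the first diphthamide enzyme, at 35.8 ± 2.62 and 37.1 ± 1.23 FPKM. DPH6 (4.46 ± 0.511 and 5.64 ± 0.973 FPKM) and EEF1AKMT2 (8.09 ± 1.70 and 9.77 ± 0.825 FPKM) had the largest differences of the list and overlapped between groups.

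Termination, recycling and rescue factors had 11 tested genes, 0 called, and a median of 0.04. The termination factors GSPT1 (98.8 ± 6.23 and 101 ± 5.45 FPKM) and ETF1 (96.1 ± 3.87 and 93.8 ± 3.17 FPKM) overlapped between groups. HBS1L, a rescue factor of the same GTPase family as eEF1A, was at 47.9 ± 1.78 and 44.2 ± 1.54 FPKM. Its partner PELO was at 14.2 ± 0.622 and 15.5 ± 0.199 FPKM. For neither gene did the groups overlap, and neither passed the threshold. Mitochondrial translation factors had 10 tested genes, 0 called, and a median of 0.07. TUFM, the mitochondrial counterpart of eEF1A, was at 146 ± 7.95 and 149 ± 3.73 FPKM, and TSFM, its exchange factor, at 30.1 ± 1.95 and 33.1 ± 1.18 FPKM. MRRF, the mitochondrial ribosome recycling factor, was at 14.8 ± 1.37 and 17.8 ± 2.33 FPKM, and MTIF3, a mitochondrial initiation factor, at 20.4 ± 1.04 and 23.3 ± 4.66 FPKM, both with overlapping groups.

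Cytosolic initiation factors had 39 tested genes, 0 called, and a median of 0.04, with log2 differences from -0.13 to 0.21. EIF4A1, the helicase that unwinds the 5′ end of mRNAs, was at 878 ± 37.7 and 938 ± 46.0 FPKM. EIF2S1, the alpha subunit of eIF2, was at 135 ± 6.03 and 156 ± 14.0 FPKM. Both were higher without overlap, and neither passed the threshold. PABPC1, the poly(A)-binding protein, was at 727 ± 35.7 and 749 ± 29.7 FPKM with overlapping groups, and EIF1AX, which takes part in start codon selection, at 45.2 ± 1.14 and 50.7 ± 3.31 FPKM, without overlap and without passing. The summed level of this list ranged from 6447 to 6656 FPKM in control and from 6704 to 7027 FPKM with overexpression, without overlap, and from 10728 to 10773 against 10905 to 11299 TPM. The sum weighs abundant genes most, EIF4A1 and PABPC1 first. In each of the other translation lists the summed TPM overlapped between the groups. Of the 39 genes, 27 had a difference above 0 and 12 below. Groups did not overlap for 7 in the higher and 1 in the lower direction, against 8.81% and 10.1% of all tested genes. Regulators of the eEF2K branch, among them mTOR, S6 kinases, AMPK subunits and calmodulins, had 15 tested genes, 0 called, and a median of -0.01. CALM3, 1 of 3 genes for the calmodulin that activates eEF2 kinase, was at 248, 239 and 228 FPKM in the control libraries and 208, 218 and 219 FPKM with overexpression, whereas CALM2 was at 356 ± 5.50 and 377 ± 24.0 FPKM. RPS6KA1, a kinase that can phosphorylate eEF2 kinase, was at 33.5 ± 0.0924 and 30.1 ± 1.85 FPKM. PPP2CA, a catalytic subunit of the phosphatase that acts on eEF2, was at 266 ± 12.2 and 272 ± 2.49 FPKM. None of these 4 passed the test, and among them the groups overlapped only for PPP2CA.

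**Figure D3:**
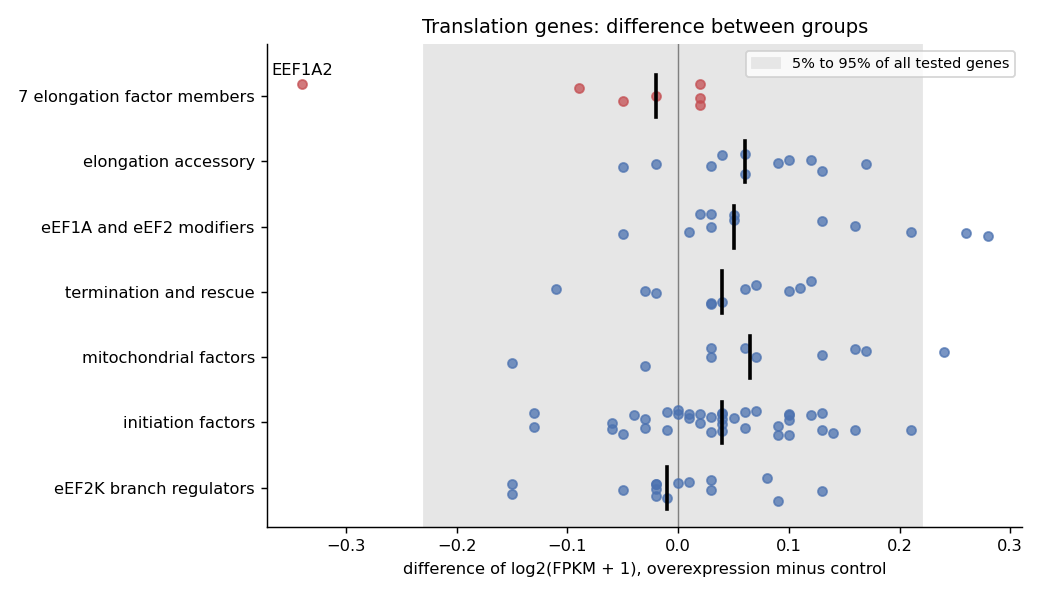
Difference of log2(FPKM + 1), overexpression minus control, for the 7 members (red) and the tested genes of 6 other translation lists (blue), with black bars at the medians and the grey band from the 5th to the 95th percentile of all tested genes, -0.23 to 0.22. EEF1A2, at -0.34, lies below the band, and the other 6 members lie between -0.09 and 0.02. In the other lists, DPH6 (0.28), EEF1AKMT2 (0.26) and MRRF (0.24) lie above the band.

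On chromosome 20, the 10 listed genes on either side of EEF1A2 in the GENCODE 29 order did not shift together. Of these 20 genes, 9 were tested, with 1 called higher, against 0.315% of all tested genes, 0 called lower and a median log2 difference of 0.01. PPDPF, the next listed gene after EEF1A2, was at 171 ± 9.15 and 165 ± 5.72 FPKM with a log2 difference of -0.05. HELZ2, a helicase that acts as a coactivator of nuclear receptors, was higher, at 69.7 ± 2.32 and 93.5 ± 8.38 FPKM (log2 difference 0.42, SE 0.07, limma adjusted p = 0.0384). The HELZ2 call was lost with any 1 library left out except overexpression replicate 2, after rescaling to TPM and in 3 further settings. RTEL1, a DNA helicase gene, had a difference of 0.08 and the readthrough gene RTEL1-TNFRSF6B one of 0.07; both overlapped between groups, and their levels are uncertain because they share exons.

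**Figure D4:**
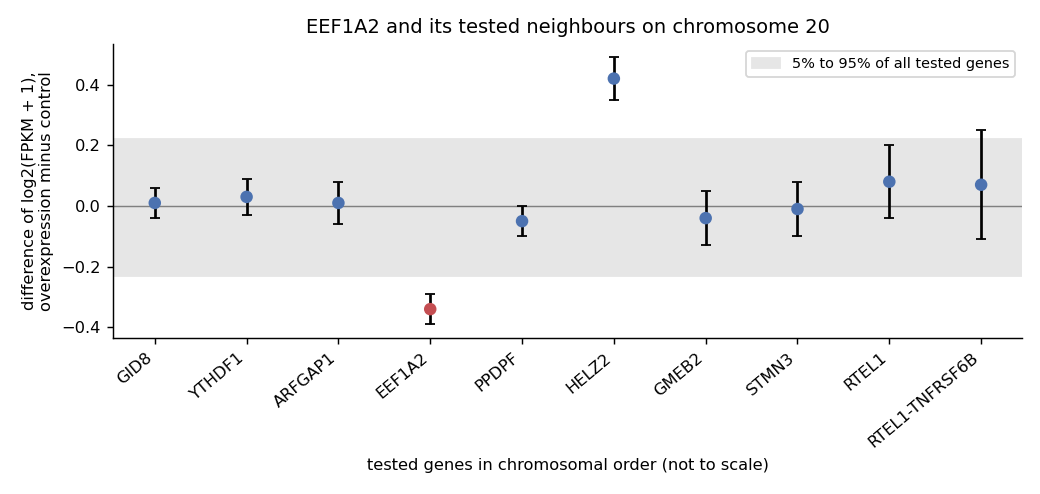
Difference of log2(FPKM + 1), overexpression minus control, for EEF1A2 (red) and its tested neighbours (blue) in chromosomal order without scale; error bars are the limma SE and the grey band runs from the 5th to the 95th percentile of all tested genes. EEF1A2 is at -0.34 and HELZ2 at 0.42, and the other 8 genes lie between -0.05 and 0.08.

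The genes whose profile was nearest to that of EEF1A2 were found by the root-mean-square distance between log2(FPKM + 1) profiles over the 6 libraries, each centred on its control mean, among 11730 genes. The median distance over all these genes was 0.268. The nearest was FSTL1, a secreted glycoprotein, at a distance of 0.028, with 279, 287 and 294 FPKM in control and 238, 213 and 222 FPKM with overexpression. It was followed by NTN1, the guidance cue netrin-1 (0.031), CHGB, a protein of secretory granules (0.033), GALNT17, a glycosyltransferase (0.034), and PCDHGB2, a clustered protocadherin (0.036). As in EEF1A2, overexpression replicate 2 was the lowest of the 6 libraries in all 5 genes. This follows largely from choosing the genes by their nearness over the same libraries, so nothing is read from it. The same holds for their calls in the fit over all genes. FSTL1 passed in the lower direction (limma adjusted p = 0.0302), and NTN1, CHGB, GALNT17 and PCDHGB2 did not. NTN1 was at 10.9 ± 0.406 and 8.36 ± 0.397 FPKM, and CHGB at 3.08 ± 0.0850 and 2.28 ± 0.261 FPKM (SD, n = 3 per group). PCDHGB2 shares exons with the other genes of its cluster, so its level is uncertain.

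**Figure D5:**
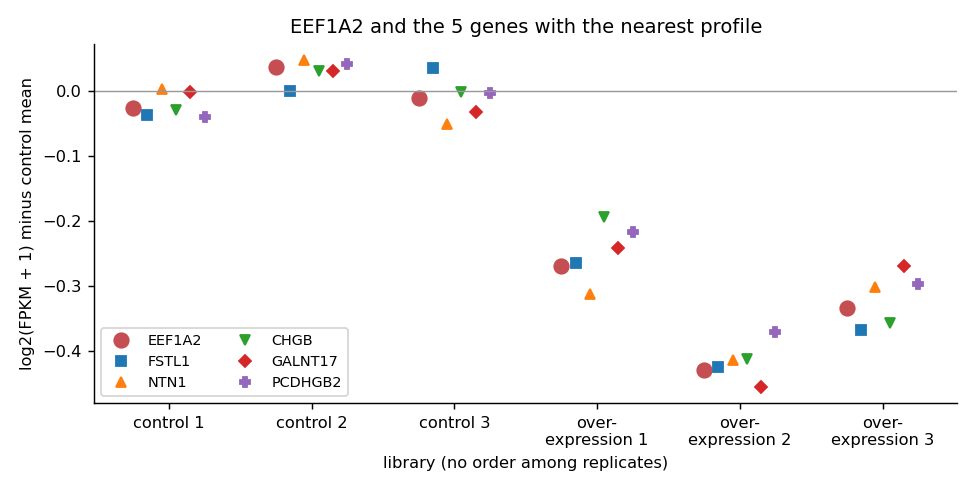
log2(FPKM + 1) minus the control mean in each of the 6 libraries for EEF1A2 (large red circles) and the 5 genes with the nearest profile; replicates have no order. All 6 genes lie near 0 in control and below 0 in the overexpression libraries, and each is lowest in overexpression replicate 2. The 5 genes were chosen for this likeness.

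Most marker genes of the tissues in which EEF1A2 is the usual form were under the filter on low values. Of 15 matched neuronal genes, 6 were tested, led by TUBB3 at 263 ± 15.4 and 257 ± 4.87 FPKM. ENO2 was at 22.7 ± 1.75 and 20.9 ± 0.537 FPKM and MAP2 at 11.9 ± 1.19 and 13.2 ± 0.755 FPKM. The other tested genes, STMN3, SNAP25 and GAP43, averaged 12.3, 1.99 and 1.27 FPKM over the 6 libraries. The remaining neuronal genes, RBFOX3, SYN1, ELAVL4, STMN2, SYP, ELAVL3, NEFM, NEFH and DCX, averaged under 1 FPKM. Summed neuronal levels were 295 to 327 FPKM in control and 302 to 311 FPKM with overexpression. Of 13 striated muscle genes only TNNT1 was tested, at 134 ± 5.56 and 117 ± 5.87 FPKM, without overlap and without passing. MYOD1, MYOG and MYF5 were listed at 0 in all libraries. Summed muscle levels were 128 to 139 FPKM in control and 113 to 124 FPKM with overexpression, nearly all of it TNNT1. Of 12 astrocyte and glioma genes, 7 were tested, namely VIM, CD44, SOX2, SOX9, NES, GFAP and SLC1A3, while AQP4, ALDH1L1, SLC1A2, S100B and OLIG2 averaged under 1 FPKM. GFAP, an astrocyte filament protein, was at 34.7, 46.0 and 44.1 FPKM in control and 30.1, 14.4 and 20.4 FPKM with overexpression (limma adjusted p = 0.107). SOX2, a transcription factor of neural progenitors, was at 116 ± 2.44 and 102 ± 3.37 FPKM, lower without overlap and without passing (limma adjusted p = 0.12). SLC1A3, a glutamate transporter, was at 3.26 ± 0.378 and 4.17 ± 1.55 FPKM. The summed levels of this list were 5072 to 5455 FPKM in control and 4792 to 5016 FPKM with overexpression, and most of each sum came from VIM (3840 ± 222 and 3581 ± 109 FPKM) and CD44 (1178 ± 71.9 and 1088 ± 62.9 FPKM), whose groups overlapped. Leukocyte and endothelial genes summed to 12.5 to 13.8 FPKM in control and 15.9 to 17.8 FPKM with overexpression, mostly CD68, a lysosomal protein (7.19 ± 0.5 and 10.1 ± 0.847 FPKM), and KDR, an endothelial receptor (4.25 ± 0.523 and 4.44 ± 0.526 FPKM), with CD3E at 0 in all libraries. CD68 was higher without overlap, and the KDR groups overlapped. None of the tested genes of these 4 lists passed the test, and their part in the EEF1A2 difference was not tested.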

How the data were processed

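RNA sequencing of U251 cells gave 6 libraries, 3 per group, assigned to groups by their titles. The authors deposited 1 table per library of gene-level FPKM values, rounded to 2 decimals. Per the submitters' processing notes, the build was hg18 and the tools included Cufflinks 2.2.1, RSEM 1.3.1, TopHat, Bowtie and edgeR; their roles are not given there. Per the labels' protocols the RNA was poly(A)-selected, whereas the series' design text describes cytoplasmic RNA without selection. FPKM carry no read totals, so depth is unknown.

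Symbols came from a table of gene names that matched 19447 of 20330 Ensembl identifiers. EEF1AKMT4, NEFL and PECAM1 were not matched. Genes listed in all 6 tables, including 68 assembled loci, with a mean of at least 1 FPKM were tested with limma 3.58.1 in R 4.3.3. The fit was limma-trend on log2(FPKM + 1), pseudocount 1, two-sided, with Benjamini-Hochberg over 11731 genes and a threshold of 0.05. Overexpression replicate 1 listed 68 assembled loci and the other libraries 120 to 591, so loci beyond the shared 68 were not used. The incomplete last line of 5 of the tables was dropped. The log2 scale with a pseudocount understates changes of low genes. The series' design text calls the replicates independent and biological without saying whether they were separate cultures, so p-values measure the spread between these libraries. With 3 libraries a group, the smallest p of an exact permutation test is 0.1. The fit was run on simulated data with independent normal noise and the spread estimated by the fit itself. Such data cannot show that the fit suits these libraries. TPM were computed from the deposited FPKM over the Ensembl genes. Sequences were taken from GENCODE 29 transcripts and RefSeq start windows (GRCh38.p14), with no entry used for EEF1A2 or EEF1D, and compared with Python 3.11.15 and Biopython 1.88. For each member the principal protein-coding transcript was used.

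The members and lists were chosen with earlier results of these data known. Named genes are the members, up to 4 called genes of each list, up to 4 more by level or size of difference, the nearest and most different neighbours of EEF1A2 and the 5 nearest profiles; other named marker genes were chosen after their values were seen. Of the genes this rule selects, 1 is not reported here. Alternatives were a pseudocount of 0.5, no filter or a mean of at least 5 FPKM, TPM, quantile normalization, no trend, a replicate block and each library left out.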

Additional observations from a re-analysis of the deposited data

How the results depend on the processing

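The EEF1A2 difference, -0.34 on the log2 scale, was -0.35 with a pseudocount of 0.5, -0.36 after rescaling to TPM and -0.35 after quantile normalization, and between -0.38 and -0.30 with 1 library left out. The filter, the trend and the block cannot move this estimate. EEF1A2 passed the threshold in 4 of 13 alternative fits, namely a pseudocount of 0.5, a mean of at least 5 FPKM, rescaling to TPM and quantile normalization. It did not pass without a filter, when limma ran without its trend, with the replicate block or with any 1 library left out. The difference in its share of eEF1A message, -0.34 percentage points, moved by less than the spread between libraries with any 1 library left out. No other member passed in any setting, and the small differences of EEF1A1, EEF1B2, EEF1D, EEF2 and EEF2K changed sign in between 1 and 3 settings each.

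Of all genes, 61 passed, against 22 with no filter, 1 without a trend and 19 with the replicate block, and between 1 and 60 with 1 library left out. The replicate numbers are shared only as numbers: deviations of same-numbered libraries correlated at -0.04, -0.056 and 0.049 across genes. Of the neighbours on chromosome 20, 1 passed, against 0 with no filter, 0 after rescaling to TPM, 0 without a trend, 0 with the replicate block, and between 0 and 1 with 1 library left out. None of the other translation genes passed in limma in any setting. FPKM give no read depth, and with 3 libraries a group the intervals of the abundant members still allow the changes given with them.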
